A study of Homo sapiens with 8 samples.

Results

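The RAB genes encode the largest branch of the RAS superfamily of small GTPases. The members described here are the rows of the deposited result table whose symbol is RAB followed by a number and at most 1 letter, or by a number, L and a digit. The rule took no measured value into account, left out RAB effectors and pseudogenes, and found 37 of the 9339 genes in the table. The samples were THP-1 cells, an established human line of acute monocytic leukaemia, grown in culture with ALKBH5 knocked down (A5-KD in the labels) or as control. ALKBH5 takes the methyl group off N6-methyladenosine (m6A), a common mark on mRNA. There were 4 groups of 2 libraries each: knockdown footprints, knockdown input, control footprints and control input. Footprints were the pieces of mRNA that ribosomes shield from micrococcal nuclease, and input was RNA from the same kind of lysate before digestion. The labels do not say how the knockdown was made, whether it is 1 clone, or whether the replicates came from separate cultures. For the control input libraries the genotype field says just "input", and the title alone puts them with the controls. The errors come from the authors' fit to these libraries, and the variation behind them may therefore be technical.

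A RAB protein is a membrane switch. Bound to GTP and anchored by lipid groups at its tail, it sits on the surface of 1 kind of vesicle or organelle and recruits effectors that move, tether or fuse that membrane. Guanine nucleotide exchange factors (GEFs) load it with GTP, GTPase-activating proteins (GAPs) make it hydrolyse the GTP, and a GDP dissociation inhibitor (GDI) takes the inactive form off the membrane. In monocytes and macrophages RAB proteins direct the uptake of particles, the maturation of phagosomes and the release of granules and cytokines. The comparison asked whether their mRNAs were translated differently after the knockdown of ALKBH5.

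The readout was the log2 fold change of translational efficiency, that is, the difference between the conditions in footprints relative to input RNA, with its standard error (SE). The authors' deposited table gives 1 such value per gene, and values per library were not analysed here, so no member has a value per sample. Which condition the fold change takes as its base is not stated in it. All signs below are the deposited ones, and a negative value cannot be read as lower or as higher in the knockdown. The depth of each library is unknown. The mean normalized signal over all libraries stands in for it, but it is not per length and gives no order of expression between genes. Of 16 markers fixed for THP-1, 14 had a value, with signals from 4.55 (ITGAM) to 2942 (LYZ) in the authors' deposited table. Of 12 markers of other cell types 3 had one, from 4.33 (KRT8) to 63.2 (PECAM1, which myeloid cells also express). ALKBH5 itself had 1.94 ± 2.30 (SE) at a signal of 4.85 in the authors' deposited table, a value of translational efficiency that says nothing of how far its mRNA was reduced.

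No RAB gene passed the deposited test of translational efficiency, and for most of them the error was too wide to tell a moderate change from none. The authors' deposited table, made with riborex on its DESeq2 engine, gives an adjusted p for 1 member, RAB7A. The count of members passing an adjusted p of 0.05 was 0, where 1.54% of the 648 genes with an adjusted p passed. With the adjustment taken over all 9339 genes it was again 0, where 0.075% passed. At an unadjusted p under 0.05 the count was 0 negative and 0 positive members, against 0.6% of all 9339 genes on the negative side and 0.107% on the positive side. With a background this low, 0 of 37 does not set the RAB genes apart. The smallest unadjusted p among them was 0.59 (RAB13) and the largest 0.99 (RAB4A) in the authors' deposited table. Of the 37 fold changes 21 were negative and 16 positive, where 51.9% of all genes were negative. The median was -0.05, with quartiles of -0.20 and 0.14. Over all genes the median was -0.02, with quartiles of -0.27 and 0.22.

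**Figure D1:**
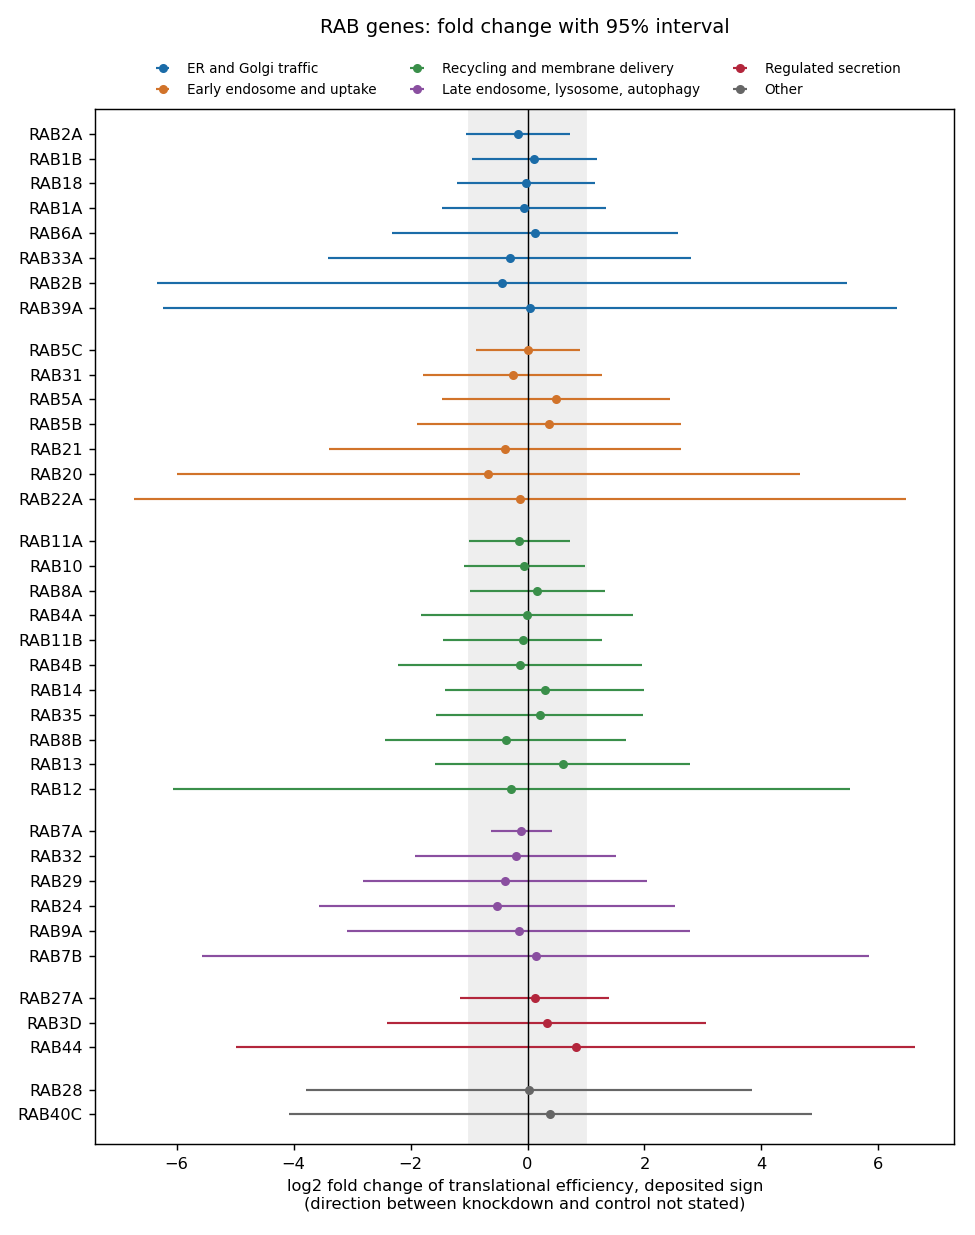
Log2 fold change of translational efficiency (deposited sign, x axis) of the 37 RAB genes, grouped by role and ordered by signal within a role. Points are the authors' values, bars are 95% intervals computed from their standard errors, and the grey band spans 1 log2 unit on either side of 0. Every bar crosses 0, and the bar of RAB7A is the shortest.

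RAB7A, the RAB of late endosomes and lysosomes that also drives the maturation of phagosomes, had the most precise value of the family. Its signal was 315.4 and its log2 fold change -0.10 ± 0.26 (SE; unadjusted p = 0.69, adjusted p = 0.999) in the authors' deposited table. The 95% interval computed from that error runs from -0.62 to 0.41, a ratio between conditions of 0.651 to 1.33. Both bounds lie within 1 log2 unit of 0. The gene lies on chromosome 3 (128726183 to 128814798, GRCh38.p14, span of the whole gene). The next member by signal was RAB5C, at 121.5, below the level of 155.3 from which the table carries adjusted p-values.

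The other members of the late endosomal and lysosomal group had wider errors. RAB32, which acts in the traffic to lysosome-related organelles, had -0.20 ± 0.88 at a signal of 32.2, and RAB29, a partner of the kinase LRRK2, had -0.38 ± 1.24 at 15.5 (both in the authors' deposited table). RAB24, linked to autophagy, had -0.52 ± 1.55, and RAB9A, which returns receptors to the Golgi, had -0.15 ± 1.50 (both in the authors' deposited table). RAB7B, at a signal of 2.83, had 0.14 ± 2.91 in the authors' deposited table. Of the 6 members of this group 5 were negative, with a median of -0.17, and each interval spans 0.

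The group listed under endoplasmic reticulum (ER) and Golgi traffic held 8 members, 5 negative and 3 positive, with a median of -0.04. Not all of them act between these compartments. RAB2A (chromosome 8, 60516910 to 60623644), which works between these compartments, had -0.16 ± 0.45 at a signal of 117.2 in the authors' deposited table. RAB1A and RAB1B, close copies needed for the step from ER to Golgi, had -0.06 ± 0.72 and 0.12 ± 0.54 in the authors' deposited table. RAB18, found on the ER and on lipid droplets, had -0.03 ± 0.60 in the authors' deposited table. Each of these 4 values lies closer to 0 than its own error. RAB6A, a Golgi RAB, had 0.13 ± 1.25 in the authors' deposited table. RAB33A, RAB2B and RAB39A, with signals from 1.72 to 9.56, had errors from 1.58 to 3.20 there and carry almost no information.

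Early endosomes and uptake at the plasma membrane were represented by 7 members, 4 negative and 3 positive, with a median of -0.12. RAB5 proteins tether and fuse early endosomes, and all 3 forms were measured. RAB5C (chromosome 17, 42124979 to 42154989) had 0.01 ± 0.45 at a signal of 121.5 in the authors' deposited table, with a computed 95% interval from -0.87 to 0.90. RAB5A had 0.49 ± 1.00 at a signal of 25.7, and RAB5B 0.37 ± 1.15 at 15.0 (authors' deposited table). The form with the smallest error was thus the one nearest to 0. RAB31, which acts between the trans-Golgi and endosomes and in phagocytosis, had -0.25 ± 0.78 in the authors' deposited table. RAB21, a RAB of integrin uptake, had -0.38 ± 1.54 in the authors' deposited table. In the authors' deposited table RAB20 and RAB22A, at signals of 2.77 and 1.50, had -0.67 ± 2.72 and -0.12 ± 3.37. The value of RAB20 is the most negative of the family but lies well within 1 error of 0.

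The largest group was that of recycling and delivery to the plasma membrane, with 11 members, 7 negative and 4 positive, and a median of -0.05. RAB11A (chromosome 15, 65869491 to 65891989), the RAB of recycling endosomes, had -0.14 ± 0.44 at a signal of 108.2 in the authors' deposited table. RAB10 and RAB8A, which deliver vesicles to the cell surface, had -0.05 ± 0.53 and 0.17 ± 0.59 in the authors' deposited table. RAB14, which links Golgi and endosomes, had 0.29 ± 0.87, and RAB35, a RAB of fast recycling at the surface, had 0.21 ± 0.91 (both in the authors' deposited table). RAB11B had -0.08 ± 0.69, RAB8B -0.38 ± 1.05 and RAB12 -0.28 ± 2.95 in the authors' deposited table. RAB13 (chromosome 1, 153981650 to 153990708), known for its role at cell junctions, had the largest Wald statistic of the family: 0.60 ± 1.11 at a signal of 18.1 in the authors' deposited table, or 0.54 errors from 0. Its computed interval runs from -1.58 to 2.78, so neither sign nor size is settled.

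Regulated secretion was represented by 3 members, all 3 positive but each with an interval across 0. RAB27A, which docks secretory granules and exosomes, had 0.12 ± 0.65 at a signal of 52.9 in the authors' deposited table. RAB3D, a RAB of regulated exocytosis, had 0.33 ± 1.39, and RAB44 0.82 ± 2.96, in the authors' deposited table. The value of RAB44 is the most positive of the family, at a signal of 2.03. Outside these groups, RAB40C, which carries a SOCS box and joins a ubiquitin ligase, had 0.39 ± 2.28, and RAB28 0.03 ± 1.95 (both in the authors' deposited table).

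Members of 1 subfamily could be set against each other in 7 pairs from 5 subfamilies, those with a signal of at least 10 on both sides. The difference RAB8A minus RAB8B was 0.54, with a 95% interval from -1.82 to 2.90, and was the largest of the 7. RAB5A minus RAB5C was 0.48 (-1.67 to 2.62), and RAB11A minus RAB11B was -0.06 (-1.67 to 1.55), the smallest in size. All 7 intervals span 0 and each also holds a difference of 1 log2 unit in either direction, so the pairs are shown neither to differ nor to act alike. The intervals take the errors of the 2 genes as independent, although both come from the same libraries, and the table gives no covariance.

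Precision followed signal. The median signal of the 37 members was 19.9, against 11.9 over all genes, and 11 members lay under a signal of 10, 14 between 10 and 50, and 12 at 50 or more. The median error was 2.91 in the lowest of these classes, 1.09 in the middle one and 0.57 in the highest. An estimate of 1 log2 unit would reach an unadjusted p of 0.05 in 4 members, RAB7A, RAB5C, RAB2A and RAB11A. Of all 9339 genes 998 are as precise. RAB10 lay just outside, with a half-width of the interval of 1.03, against 0.889 for RAB5C just inside. In the other 33 an estimate of that size would not reach that p with the deposited errors. How often a true change of that size would be found was not computed. With the errors narrowed by the spread of the statistics over all genes (0.280, chosen after seeing the data), 28 members rather than 4 would reach it, and whether the deposited errors are too wide was not tested.

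**Figure D2:**
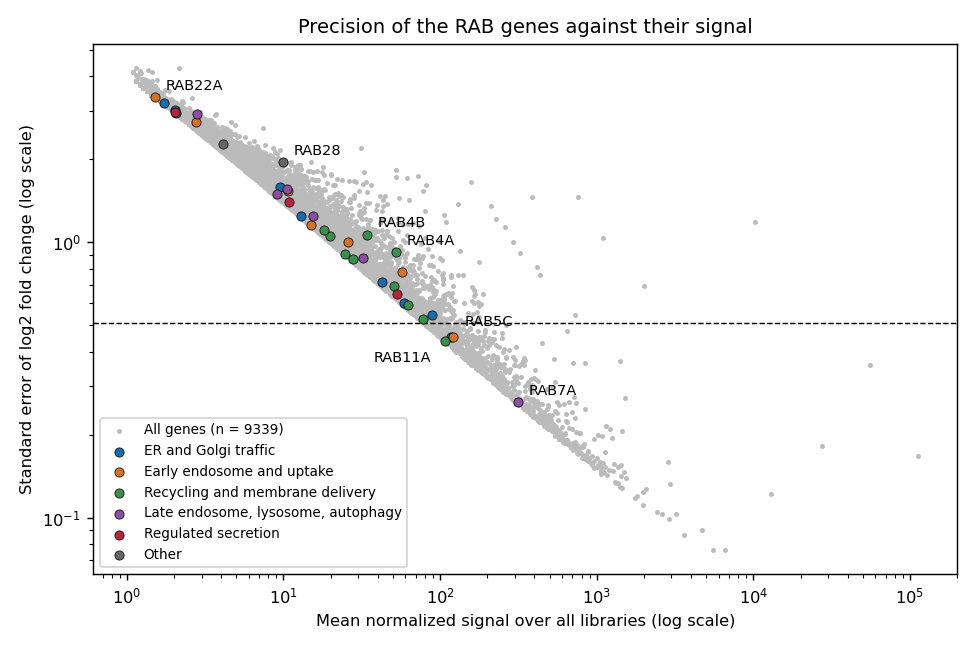
Standard error of the log2 fold change (y axis, log scale) against mean normalized signal (x axis, log scale) for all 9339 genes (grey) and the 37 RAB genes (coloured by role). The dashed line marks the error at which an estimate of 1 log2 unit reaches an unadjusted p of 0.05. RAB7A, RAB5C, RAB2A and RAB11A lie under it, and RAB4A, RAB4B and RAB28 lie above the middle of the genes with like signal.

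Set against genes of similar signal, most members had an ordinary error. The ratio of a member's error to the running median of the 401 genes around it in signal had a median of 0.997, with 18 members above 1 and 19 below. RAB4A had the highest ratio, 1.37, followed by RAB28 at 1.34, RAB4B at 1.30 and RAB31 at 1.21. RAB4A and RAB4B are close copies that return receptors quickly to the surface. In the authors' deposited table RAB4A had -0.01 ± 0.92 at a signal of 52.4, and RAB4B -0.13 ± 1.07 at 34.1. By comparison RAB27A, at nearly the signal of RAB4A, had an error of 0.65 in the authors' deposited table. The annotation places an antisense RNA, RAB4A-AS1, over RAB4A, and 2 read-through genes, MIA-RAB4B and RAB4B-EGLN2, over RAB4B. RAB28 has 5 annotated pseudogenes named for it and RAB31 has 1. Features of these kinds are also annotated for members with ordinary errors, and whether they bear on the errors was not tested. RAB9A also has 5 named pseudogenes at a ratio of 0.981, RAB11A has 2 at 0.926 and RAB1A 2 at 0.962. RAB5C, with 2 named pseudogenes and an antisense RNA, stood at 1.00, and RAB11B, with an antisense RNA, at 1.02.

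The Wald statistic, the fold change divided by its error, was small for every RAB gene. Its root mean square was 0.247 over the 37 members, 0.351 over the 8731 genes in the members' range of signal and 0.436 over all genes, where a standard normal distribution has 1. The deposited statistics as a whole are thus narrower than their nominal distribution. The 8731 genes are matched to the members only in the range, with a median signal of 11.9 against 19.9. At a signal of at least 10 the root mean square was 0.279 over 26 members and 0.545 over 5116 genes. Those 5116 genes include signals above the highest of the members. The largest statistic of a member, that of RAB13, was 0.54 in size, a value that 90.2% of the genes in the members' range of signal did not exceed.

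**Figure D3:**
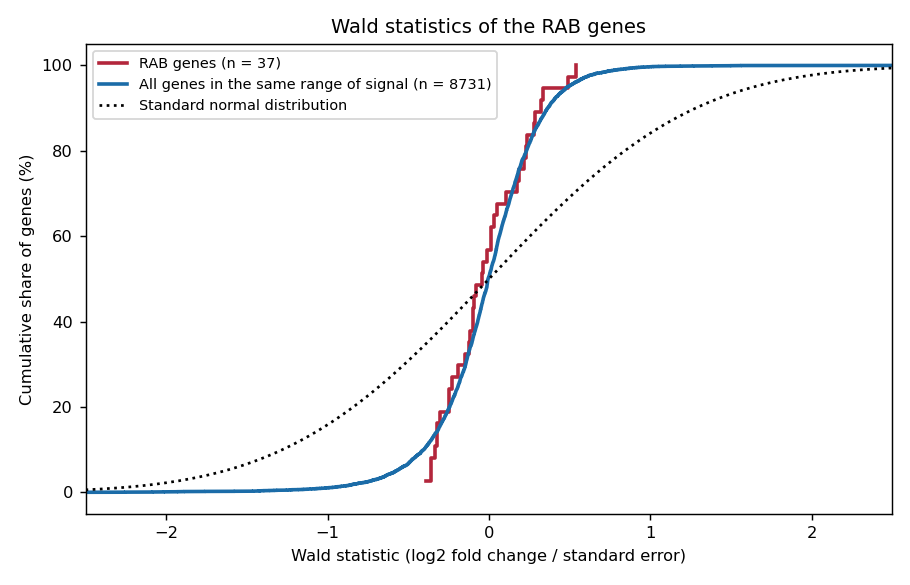
Cumulative share of genes (y axis, %) by Wald statistic (x axis) for the 37 RAB genes, for the 8731 genes within the same range of signal, and for a standard normal distribution (dotted). Both sets of genes lie close around 0, far inside the dotted curve.

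The machinery that loads, unloads and reads RAB proteins gave no call either. Of the genes in these 4 lists 0 passed an unadjusted p of 0.05 in the authors' deposited table, where 0.707% of all genes did. The 12 measured escort, prenylation and GDI genes split into 5 negative and 7 positive values around a median of 0.05. GDI2, which extracts inactive RAB proteins from membranes, had 0.02 ± 0.31 at a signal of 258.4, and RABGGTB, a subunit of the enzyme that attaches their lipid anchors, had 0.43 ± 0.78 (both in the authors' deposited table). RABAC1, which helps release RAB proteins from GDI, had -0.72 ± 0.96 in the authors' deposited table. GDI2 was the 1 gene of this list in which an estimate of 1 log2 unit would reach an unadjusted p of 0.05.

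Among 40 measured GEF genes there were 24 negative and 16 positive values, and the median was -0.13. TRAPPC5 and TRAPPC3, subunits of the TRAPP complexes that load RAB proteins of the Golgi, had -1.33 ± 1.02 and -0.30 ± 0.43 in the authors' deposited table. TRAPPC2L, at a signal of 120.1, had -0.22 ± 0.44 in the authors' deposited table. The 26 GAP genes gave 15 negative and 11 positive values with a median of -0.05, and SGSM3 had 0.93 ± 1.40 in the authors' deposited table. The 46 effector genes divided evenly, 23 on either side, around a median of 0.01. VPS35, a subunit of the retromer that sorts cargo out of endosomes, had 0.44 ± 0.66, and PLIN3, a binding partner of RAB9, had 0.36 ± 0.61 (both in the authors' deposited table).

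The other branches of the superfamily described here also had medians a little below 0. The median was -0.09 for 20 ARF, ARL and SAR genes and -0.10 for 14 RAS, RAP and RAL genes, a list that also holds RAN. RAN, the GTPase of nuclear transport, was the 1 gene of these lists with an unadjusted p under 0.05 (-0.39 ± 0.19, p = 0.041, adjusted p = 0.48 in the authors' deposited table). ARF1, which recruits coats at the Golgi, had 0.21 ± 0.19 at a signal of 578.4 in the authors' deposited table. With signals of at least 10 the median was -0.04 for 26 RAB genes, against -0.02 for 14 ARF, ARL and SAR genes and -0.36 for 8 genes of the RAS, RAP and RAL list. No difference between the branches was tested.

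**Figure D4:**
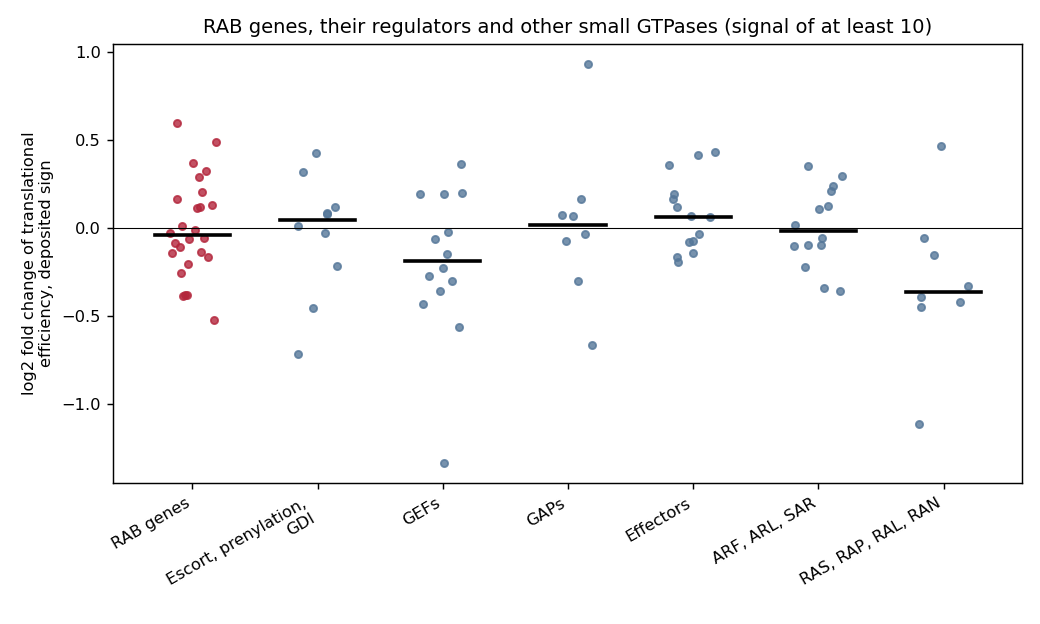
Log2 fold change of translational efficiency (y axis, deposited sign) of genes whose mean signal reached 10, in 7 lists: RAB genes (red), their regulators and effectors, and other small GTPases (blue). Points are genes, side to side spread is arbitrary, and black bars are medians. The 26 RAB genes lie around a median of -0.04.

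As a feature that bears on translation, the annotated transcription starts were searched for a run of pyrimidines, the start of the 5′ terminal oligopyrimidine (TOP) mRNAs, whose translation is controlled together in growing cells. The search asked for a C at the first base followed by at least 4 bases that are each C or T. It read starts from RefSeq (GRCh38.p14), only on the strand that has the sequence of the RNA. Of the 37 members 31 had a start in that table, with 42 starts in all. RAB1A, RAB2A, RAB12, RAB20, RAB33A and RAB44 had none there. A run was found in 3 of the 31 (9.68%), against 8% of 7409 genes of the deposited table and 5.14% of all 27305 annotated genes with a start. The first 15 bases of these starts are shown because they carry the run, which stands in capitals. RAB13 has 2 such starts (chr1:153985379-153985393 and chr1:153986325-153986339, minus strand), RAB4A 1 (chr1:229271111-229271125, plus strand) and RAB3D 1 (chr19:11339643-11339657, minus strand). The 2 starts of RAB13 are listed by coordinate, so on the minus strand the first lies downstream of the second. Both lie inside the span of the gene, whose 5′ end is at 153990708.
RAB13, first start: CTCTTCTTTCTTCat
RAB13, second start: CTTCCTggcctgggc
RAB4A: CTCTTCCTCCTCgcg
RAB3D: CTTCTgggcggagcc
The run is 13 and 6 bases long in RAB13, 12 in RAB4A and 5 in RAB3D. Their fold changes, given above, were 0.60, -0.01 and 0.33, all 3 within 1 error of 0. By the same search 48 of 67 cytosolic ribosomal protein genes (71.6%), the classical TOP mRNAs, had a run. Of these 48 genes 46 had a negative fold change, and the median of all 48 was -0.25. Over all 593 genes of the deposited table with a run, 357 were negative and the median was -0.07. Without regard to a run, 51.9% of all 9339 genes were negative, with a median of -0.02. Among all genes with a signal of at least 50 these values were 60.4% and -0.07. Whether a run goes with the sign was not tested, and signal was not matched. Each 95% interval of the 3 RAB genes holds 0 and the medians of both sets with a run, so the signs of these 3 are not settled.

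Some members have annotated copies or overlapping neighbours, and shared reads were not measured. The annotation lists pseudogenes under the gene's own name for 6 of the 37 members (RAB1A, RAB5C, RAB9A, RAB11A, RAB28 and RAB31). The spans of 22 members overlap another annotated gene, a protein-coding one in 7 and a long noncoding RNA in 13. Within the span of RAB7A lie 4 pseudogenes of other genes, among them copies of FTH1 and RPS15A. The sources used here do not say how the counting treated strand and shared reads. The annotation holds 63 protein-coding genes whose symbol meets the rule, and the 26 beyond the members were not analysed here.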

How the data were processed

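Footprints and input RNA of THP-1 cells were compared between ALKBH5 knockdown and control, 8 libraries in 4 groups of 2, grouped by sample title. Per the submitters' processing notes the tools were CASAVA, HISAT2 2.1.0 and kallisto, with build hg38, and their roles are not stated. The deposited table, made by the authors with riborex and its DESeq2 engine as its name shows, holds 1 comparison over 9339 genes. Its mean normalized signal (baseMean) is, per the file headers, a mean over libraries. The log2 fold changes and their standard errors, the Wald score, the p-value and the adjusted p-value are also the authors' deposited values. The depth per library is unknown, so no counting interval was made.

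Computed here (Python 3.11.15, pandas 2.3.3, scipy 1.17.1) were 95% intervals from a normal distribution, counts, medians, and running medians over 401 genes by signal. The adjusted p equals a Benjamini-Hochberg adjustment over the 648 genes with a signal of at least 155.3. The recomputed adjustment was tested on simulated data. All 37 members matched RefSeq (GRCh38.p14) by symbol. Members, lists and alternatives were chosen with earlier results of these data known, so no list was tested. The search of transcription starts and the comparison of errors among genes of like signal were chosen after the members' values were seen. Named genes were the members and, per other list, those of smallest p and highest signal. Alternatives tried were other centrings, rescaled statistics, signal minimums of 10 and 50, a wider adjustment, added RAB-like genes, omission of members with named pseudogenes, and a weighted mean.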

Additional observations from a re-analysis of the deposited data

How the results depend on the processing

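The count of RAB genes passing an adjusted p of 0.05 (the authors' deposited riborex test with the DESeq2 engine, recomputed) was 0, as was the count at an unadjusted p under 0.05, under each alternative run. These were both centrings, both signal minimums, the added RAB-like genes, the omission of 6 members with a named pseudogene and rescaling by the spread of all statistics (0.280). The adjusted count was also 0 with the adjustment over all 9339 genes, where 0.075% of genes passed. After rescaling the smallest unadjusted p was 0.055 (RAB13). The share of all genes passing after rescaling was not computed. The statistics of 88.6% of all genes were no larger in size than that of RAB13. Without rescaling, 56 negative and 9 positive of all 1774 genes with a signal of at least 50 passed an unadjusted p of 0.05. At a signal of at least 10 it was 56 and 10 of 5116. The median ran from -0.06 with RAB-like genes added to -0.03 without members with a named pseudogene, and a mean weighted by precision gave -0.03. The negative count was 20 of 37 after either centring, and 8 of 12 (66.7%) at a signal of at least 50, where fewer genes are counted and 60.4% of all genes were negative. RAB4A turned to 0.0101 with the median of all genes subtracted, and RAB7A to 0.0133 with the running median of similar genes subtracted, and the other 36 values kept their sign in each case. Neither sign is settled by its error. No paired analysis was possible because the table holds no values per library, and leaving out a replicate was not possible for the same reason. Signal limits what can be seen. With the deposited errors, an unadjusted p of 0.05 takes an estimate larger in size than 1 log2 unit in 33 of 37 members. With the rescaled statistics an estimate of 1 log2 unit is enough in 28 members, not 4 (chosen after seeing the data). The chance of finding a true change of this size was not computed in either case.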
